A study of Homo sapiens with 42 samples.

Results

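MV4;11 cells were exposed for 6 h to 100 nM MS41, a small-molecule degrader of the chromatin reader ENL, and their RNA was compared with that of cells given the solvent DMSO for the same time. MV4;11 is an acute myeloid leukaemia line that carries a fusion of MLL (KMT2A) with AF4 (AFF1). The comparison took its members by group label alone, 3 MS41 and 3 DMSO libraries of the 42 samples in the series, and covered the 22711 of 58721 listed genes that passed a filter on low counts. All cells were labelled wild type and grown in RPMI medium with 10% serum, and polyadenylated RNA was sequenced. At the same dose and time, 3 further libraries each came from cells given MS41N, which the labels name without giving its function, and PFI-6, a ligand of the YEATS domains of ENL and AF9. The same 4 treatments were also sampled at 24 h, again with 3 libraries each, and those are used here only to say how the response at 6 h differed from the later one. Values after ± are SDs over 3 libraries. The labels do not say whether the replicates were separate cultures, so p-values measure only the spread between these libraries, which may be technical.

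ENL, encoded by MLLT1, binds acetylated or crotonylated histone H3 through its YEATS domain. It brings the super elongation complex, with its kinase P-TEFb, and the H3K79 methyltransferase DOT1L to active genes. MLL fusion proteins recruit the same machinery and hold genes of the blood progenitor programme at high transcription, among them HOXA9, HOXA10, MEIS1, MYB and MYC. A polymerase held back at such genes is read in messenger RNA only as far as each transcript turns over within the exposure, so short-lived transcripts can move sooner than stable ones.

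The 6 libraries held 102345811 to 147528818 counts each. Counts from mitochondrial genes made up 5.49 to 5.63% of the DMSO libraries, and 5.56, 7.09 and 5.68% of MS41 replicates 1, 2 and 3, so MS41 replicate 2 stood apart. Its part in the results was not tested beyond leaving it out, and main counts without it are given below. Markers of the myeloid line were present. FLT3 (a receptor kinase) was at 432, 425 and 428 CPM (counts per 1000000 counts of the scaled library size) with DMSO, the lysozyme gene LYZ at 563, 563 and 555 CPM and the surface antigen gene CD33 at 77.5, 80.4 and 82 CPM. Among markers of other lineages, CD2, HBA1, COL1A2 and EPCAM had 0 counts in all 6 libraries and CD3D had 1. Others had reads. With DMSO, the tested T and NK markers summed to 11.12 to 12.9 CPM and the tested erythroid and megakaryocyte ones to 11.89 to 12.95 CPM. The tested stromal ones summed to 3.811 to 4.043 CPM. No T and NK, erythroid or stromal marker that could be tested passed the test (6, 3 and 4 genes; edgeR), 1, 1 and 0 of them had an unadjusted p under 0.05, and DESeq2 called 0, though with libraries scaled by total counts 1 T and NK and 1 erythroid marker were called higher. Of 5 B lineage markers tested, BLNK rose from 0.176 ± 0.0606 to 1.07 ± 0.0889 CPM, and 2 in all rose with 0 lower, or 1 without MS41 replicate 3. The 5 together summed to 2.571 to 3.412 CPM with DMSO and 4.702 to 4.881 CPM with MS41.

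After 6 h, 5897 genes (26.0% of those tested) differed between MS41 and DMSO at an adjusted p below 0.05 in edgeR's quasi-likelihood test, the rule behind "rose" and "fell" throughout. Of these, 2768 genes (12.2%) rose and 3129 (13.8%) fell. Most changes were small. A change of at least 2-fold was found for 300 genes that rose (1.32%) and 56 that fell (0.247%). Of those 300, 148 had an average log2 CPM over all 24 MV4;11 libraries below -2 and 105 one from -2 to 0, so most large rises were of scarce transcripts. The low-count filter needed only 3 of the 24 libraries to reach its limit. A scarce gene could therefore pass through MS41 libraries alone, at 6 or 24 h. The part of this in the 148 rises and 21 falls below -2 was not tested. The 3 MS41 values lay all above or all below the 3 DMSO values for 8492 genes (37.4%). With libraries scaled by their total counts in place of trimmed means (TMM), 6089 genes passed and 70.2% of them were higher, against 46.9% with TMM. That scaling puts the median log2 difference of all genes at 0.09 in place of 0.02. Tested against a change of 1.2-fold in place of none, 803 genes passed, 64.5% of them higher. CPM are shares of a library, so a change in total RNA per cell cannot be seen, and fewer cells with a transcript cannot be told apart from less of it per cell.

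Direction went with level. Among the 1751 genes with an average log2 CPM of 7 or more, 196 rose and 941 fell, while of the 3771 genes from 0 to 3, 623 rose and 237 fell. Of all genes with an average log2 CPM of at least 3, 18.7% rose and 30.4% fell. For lists of abundant genes below, these shares are a nearer reference than those of all genes. Direction also went with gene length. Of 454 genes shorter than 2000 bases with an average log2 CPM of at least 3, 6 rose and 204 fell, and of 1406 genes of 100000 to 300000 bases 436 rose and 292 fell. Processed pseudogenes, which share reads with their parent genes, made up part of the short class, with 3 higher and 164 lower among 317. GC content moved along as well: the fifth of genes with the lowest GC content (27.9 to 40.2%) had 530 higher and 406 lower, and the fifth with the highest (56.2 to 72.0%) had 195 higher and 581 lower. Medians with PFI-6 against the same DMSO libraries ran the same way. For the genes of lowest GC content the median log2 difference was 0.026 with PFI-6 and 0.017 with MS41. For those of highest it was -0.064 and -0.056. For genes shorter than 2000 bases it was -0.072 and -0.113, and from 100000 to 300000 bases 0.018 and 0.025. Below an average log2 CPM of -2 it was 0.136 and 0.223, and from 7 upward -0.01 and -0.079. These trends in the medians were not particular to MS41. Together, the CPM of the genes that fell came to 49.7% of the scaled library size with DMSO and 43.7% with MS41. The CPM of all genes tested summed to 1002000 to 1008000 with DMSO and 947100 to 973500 with MS41. Part of that drop therefore lies in the scaling. The part of level, length and GC content in the gene calls was not tested, except that after a smooth GC trend had been removed from each library 2551 of the rises and 3078 of the falls were called again in the same direction.

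**Figure D1:**
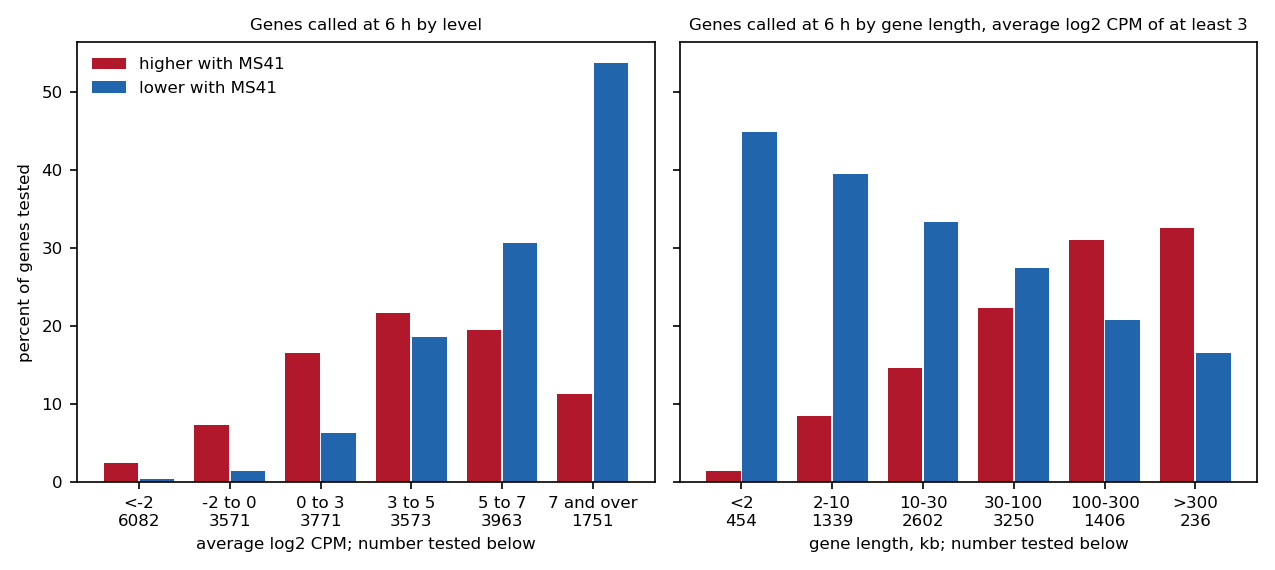
Genes that rose and fell with MS41 against DMSO at 6 h as a percentage of the genes tested (y axis), by average log2 CPM and by gene length in bases for genes with an average log2 CPM of at least 3 (x axes). Falls outnumber rises above an average log2 CPM of 5 and among the shortest genes, and rises outnumber falls below 5 and from 100000 bases upward.

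MLLT1 RNA itself fell slightly and was at 132, 125 and 123 CPM with DMSO and 114, 110.3 and 114 CPM with MS41 (log2 difference -0.16, SE 0.031, adjusted p = 6.47e-05). A degrader acts on the protein, which was not measured here, so this RNA value checks no label. AF9, encoded by MLLT3, has a YEATS domain of the same kind, and its RNA rose from 1.62 ± 0.153 to 2.67 ± 0.322 CPM (0.72, adjusted p = 0.000793). YEATS2 and YEATS4, which sit in acetyltransferase complexes, differed by 0.10 and 0.13, and both lost their calls when single libraries were left out (adjusted p of 0.231 for YEATS2 without MS41 replicate 3 and 0.0809 for YEATS4 without DMSO replicate 2). In the list of 33 super elongation, P-TEFb and MLL complex genes, 3 rose and 11 fell with a median log2 difference of -0.04, against 0.02 over all genes, but with total counts 7 rose, 3 fell and the median turned to 0.03. The 33.3% lower compares with 30.4% of genes with an average log2 CPM of at least 3. AFF4, the scaffold of the super elongation complex, was among the rises (89.5 ± 1.29 to 103 ± 2.78 CPM), as was PSIP1, which tethers MLL to chromatin (145 ± 3.64 to 168 ± 7.29 CPM). DOT1L (88.4 ± 3.14 to 78.4 ± 1.01 CPM) and the menin gene MEN1 (46.6 ± 0.82 to 41.1 ± 1.39 CPM) fell.

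The largest fall of any gene with an average log2 CPM of at least 3 was that of PITX1, a homeodomain transcription factor known from hindlimb and pituitary development. PITX1 (ENSG00000069011, GRCh38 chromosome 5, 135027735 to 135034813) was at 239.9, 227 and 231 CPM with DMSO and 68.4, 63.1 and 62.1 CPM with MS41 (log2 difference -1.85, SE 0.062, adjusted p = 3.34e-14). HOXA9, the homeobox gene by which MLL-rearranged leukaemia is best known, came next. HOXA9 (ENSG00000078399, chromosome 7, 27162435 to 27175180) was at 56.3, 61.5 and 60.2 CPM with DMSO and 19.6, 19.6 and 20.01 CPM with MS41 (log2 difference -1.59, SE 0.036, adjusted p = 5e-33). The 3 MS41 values of HOXA9 lay close together and well below every DMSO value. HOXA10 was at 29.4, 30.2 and 29.9 CPM with DMSO and 13.9, 12.2 and 12.1 CPM with MS41 (log2 difference -1.23, SE 0.048, adjusted p = 1.91e-24). The HOXA9 gene model in the annotation used overlaps HOXA10 and the antisense transcript HOXA10-AS. The labels do not state whether counting used strand, so reads of these 3 cannot be fully told apart. Of 18 HOXA cluster genes listed 10 were tested: these 3 fell and the other 7 did not pass. HOXA3 to HOXA7 had at most 10 counts in any library and were not tested.

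The promoter of HOXA9 is shown because HOXA9 fell furthest of the MLL fusion targets. It comes from RefSeq (GRCh38.p14, chr7:27165488-27165787, minus strand) and runs from 250 bases before the start to 50 after it, with the hexamer CACGTG, an E-box, in capitals 71 bases before the start.
HOXA9: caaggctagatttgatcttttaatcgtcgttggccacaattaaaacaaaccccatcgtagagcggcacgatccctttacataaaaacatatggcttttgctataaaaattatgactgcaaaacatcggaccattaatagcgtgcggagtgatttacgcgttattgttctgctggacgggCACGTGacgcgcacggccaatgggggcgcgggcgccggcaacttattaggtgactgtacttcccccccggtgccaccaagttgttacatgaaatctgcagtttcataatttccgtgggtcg

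Other partners and homeobox genes fell with them. MEIS1, the DNA-binding partner of HOXA9, was at 83, 83.3 and 84.8 CPM with DMSO and 44, 47.5 and 44.3 CPM with MS41 (-0.89, adjusted p = 2.19e-25), and PBX3, another partner, fell from 98 ± 1.22 to 65.1 ± 1.23 CPM (-0.59). Among 30 tested homeobox genes outside the HOXA cluster, 13 fell and 4 rose, with a median log2 difference of -0.13. HMX2 went from 21.1 ± 0.989 to 9.12 ± 0.956 CPM and its neighbour HMX3 from 14.2 ± 0.528 to 7.74 ± 0.44 CPM. IRX3 fell from 68.1 ± 0.933 to 34.2 ± 0.287 CPM (-0.99 on the log2 scale). SATB1, a chromatin organiser of blood cells, fell from 468 ± 9.38 to 277 ± 2.75 CPM (-0.76). The rises in this list were small or came from low levels, for example POU2F2, from 24.6 ± 0.788 to 28.4 ± 0.773 CPM.

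BAHCC1, a chromatin protein with a BAH domain, was at 183, 159.6 and 162 CPM with DMSO and 59.2, 57.7 and 65.6 CPM with MS41 (log2 difference -1.47, SE 0.058, adjusted p = 1.08e-13). CDKN1B encodes p27, an inhibitor of cyclin-dependent kinases, and was at 142, 147 and 146 CPM with DMSO and 61, 63.8 and 58.6 CPM with MS41 (log2 difference -1.25, SE 0.031, adjusted p = 7.68e-32). For PITX1, HOXA9, BAHCC1 and CDKN1B alike, every MS41 value was far below every DMSO value, but groups without overlap were a condition for the largest falls named. UGCG, the enzyme that makes glucosylceramide, fell from 381 ± 9.15 to 183 ± 4.51 CPM (-1.06), and INHBA, the activin A subunit, from 99.4 ± 5.55 to 44.5 ± 0.456 CPM (-1.16). Segments of the T cell receptor gamma locus, which some myeloid leukaemia lines transcribe, also fell: TRGC1, the constant region, was at 354, 364 and 375 CPM with DMSO and 160.4, 166 and 163 CPM with MS41 (-1.16, adjusted p = 5.35e-34), and the joining segment TRGJP1 fell from 26.6 ± 1.15 to 10.5 ± 0.718 CPM. AL139125.2, a non-coding gene beside SFMBT2, fell from 18.2 ± 0.754 to 8.62 ± 0.453 CPM.

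**Figure D2:**
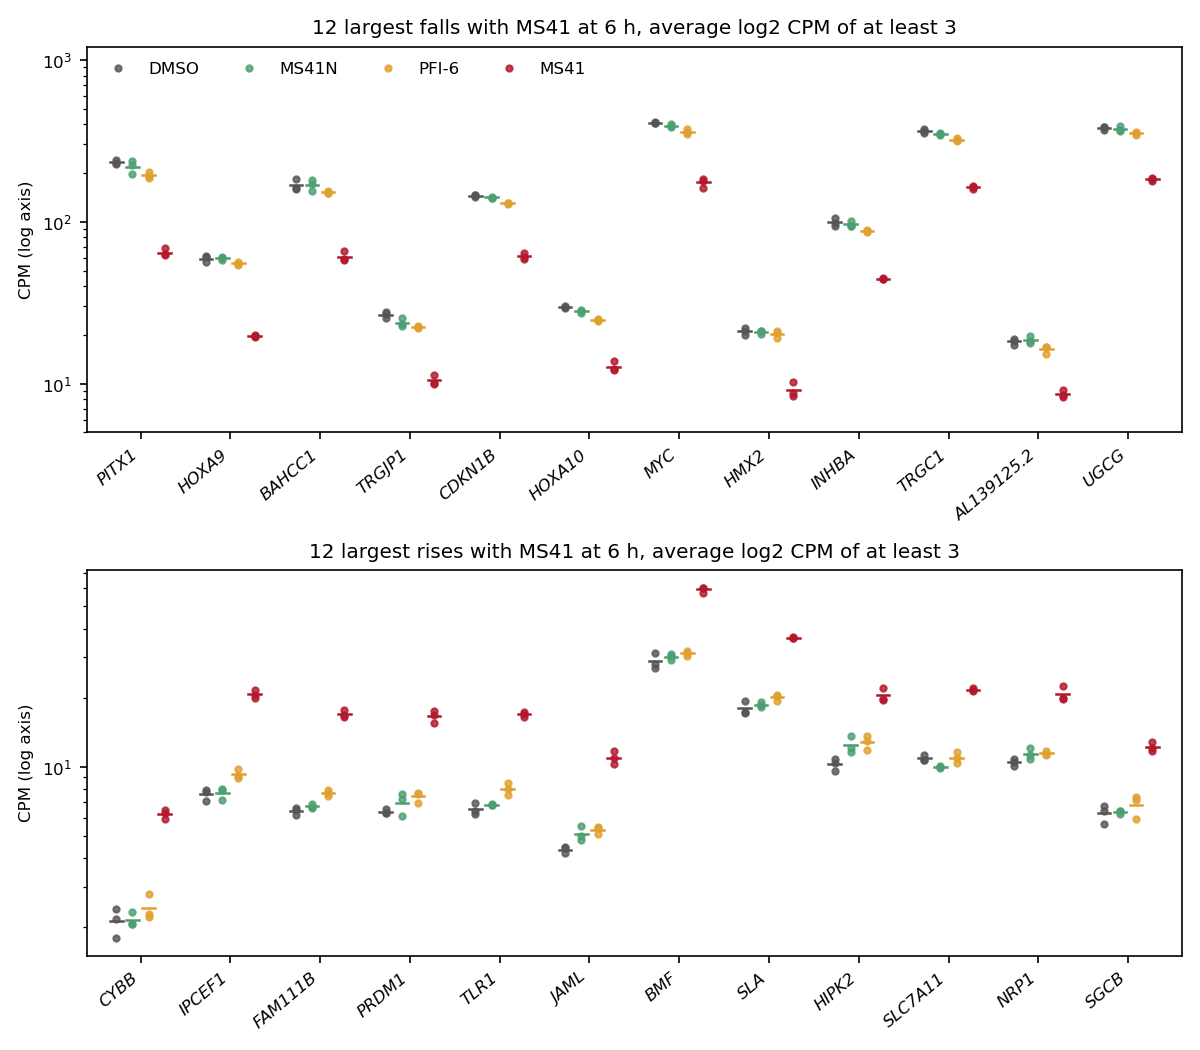
CPM (log axis) in each of the 3 DMSO, 3 MS41N, 3 PFI-6 and 3 MS41 libraries at 6 h for the 12 largest falls and 12 largest rises among genes with an average log2 CPM of at least 3. Each circle is a library, coloured by group. The replicates of each group lie close together, and the DMSO and MS41 groups do not overlap for any of the 24 genes, which were chosen for that.

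In the list of MLL fusion target genes, which was drawn up with earlier results of these data known and is no independent evidence of its direction, 29 of 35 tested members fell and 2 rose (13.8% and 12.2% of all genes did), with a median log2 difference of -0.42. Without MS41 replicate 2, 28 fell and 1 rose. The sizes differed widely among members. MYB, a transcription factor that blood progenitors need, was at 668, 699.7 and 708 CPM with DMSO and 401, 399.6 and 386 CPM with MS41 (-0.81, adjusted p = 6.93e-28). The RNA-binding protein genes CPEB2 (-0.85), ZFP36L2 (-0.61), MBNL1 (-0.58) and IGF2BP2 (-0.58) formed a middle group by log2 difference. FLT3, whose internal duplication MV4;11 is known for, fell from 429 ± 3.6 to 299 ± 4.05 CPM (-0.52). The transcription factor genes GFI1 (-0.54), MEF2C (-0.46), RUNX1 (-0.41) and LMO2 (-0.36) fell by like amounts. At the small end stood the cell cycle kinase CDK6 (-0.35), the demethylase-like JMJD1C (-0.33) and the lymphoid factor IKZF1 (-0.17). IKZF2, which encodes Helios, rose from 9.82 ± 0.528 to 11.7 ± 0.245 CPM.

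MYC encodes the transcription factor that drives growth genes in many cancers. It was at 406, 413 and 407 CPM with DMSO and 184, 178 and 163 CPM with MS41 (log2 difference -1.23, SE 0.03, adjusted p = 3.71e-32). The groups did not overlap, which was a condition for the largest falls named. Of 17 genes of the MYC network, 7 fell (41.2%) and 2 rose (11.8%, against 12.2% of all genes). Under total counts 6 fell and 3 rose. Its partner MAX fell from 93.6 ± 2.2 to 80.8 ± 3.33 CPM and the repressor MNT from 23.6 ± 0.865 to 17.5 ± 0.489 CPM. The 2 rises were MXD1 and MXD3, competitors for MAX, and neither passed without MS41 replicate 2 (adjusted p of 0.161 and 0.318).

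Genes tested within 100 kb of the 12 largest falls numbered 73, of which 4 were themselves among the 12 (HOXA9, HOXA10, TRGC1 and TRGJP1). Of the other 69, 23 fell (33.3%) and 4 rose, where 13.8% of all genes fell. They were chosen by the falls beside them, and several overlap the fallen gene, so their counts are a description. Beside PITX1, 3 of 7 fell: C5orf66 (-1.30), C5orf66-AS1 (-1.42) and AC008406.3 (-1.57). C5orf66 and AC008406.3 run antisense to PITX1, and without a stated strand setting their reads may include those of PITX1 or of its readthrough. Beside CDKN1B, the transcript AC008115.3 inside the gene fell (3.14 to 1.04 CPM), as did APOLD1 3.5 kb away (30.6 to 21.5 CPM), and CREBL2 rose (0.30). HMX2 had HMX3, the spindle checkpoint gene BUB3 (-0.28) and ACADSB (-0.13) lower among its 4 neighbours. Near MYC, both genes tested, CASC11 (-1.96, adjusted p = 0.0486) and PVT1 (-0.22), fell, though PVT1 had an adjusted p of 0.0702 under total counts. The T cell receptor gamma segments were split, with TRGC2 (-0.64) and TRGV9 (-0.92) among the falls and TRGV5 (0.52) among the rises. For BAHCC1, 1 of 13 neighbours fell, MIR3186, which lies inside it.

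Ribosome biogenesis, the set of nucleolar factors that make and process ribosomal RNA, fell in nearly every member. Of 58 members 57 fell, with a median log2 difference of -0.29 and a range from -0.57 to 0.03, and UBTF, the polymerase I factor, was the exception at 0.03 (adjusted p = 0.554). Without MS41 replicate 2, 57 fell again. NOP16, a nucleolar protein of the large subunit, was at 72.2, 74.6 and 73.8 CPM with DMSO and 51.2, 49.4 and 47.8 CPM with MS41 (-0.57, SE 0.031, adjusted p = 1.78e-19). The pseudouridine synthase PUS7 was at 106, 108 and 109.6 CPM with DMSO and 80.4, 79.9 and 76.4 CPM with MS41 (-0.46) and the nucleolar factor SURF6 at 56.2, 56.3 and 55.8 CPM with DMSO and 41.4, 41.1 and 41.3 CPM with MS41 (-0.44). The RNA polymerase I subunit genes POLR1C (-0.48), POLR1B (-0.37) and POLR1A (-0.22) fell as well. Among abundant members nucleolin (NCL) went from 3209 ± 51.3 to 2569 ± 108 CPM (-0.32), nucleophosmin (NPM1) from 1675 ± 5.66 to 1455 ± 26.7 CPM (-0.20) and the helicase DDX21 from 1154 ± 24.1 to 876 ± 26.4 CPM (-0.40). No member of this list fell as far as HOXA9, MYC or MYB did.

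The E-box CACGTG is the preferred site of MYC with MAX and of several related factors. RefSeq promoters were matched for 49 of the 58 ribosome biogenesis genes (61 promoters), and 24 of the 61 held CACGTG, or 39.3%, against 7.26% of all 35116 promoters in the table and 11.5% of the 61 promoters of 28 of the 35 MLL fusion targets. CACGTG reads the same on both strands, and a match is a description of these letters. The promoters of PUS7 (chr7:105522222-105522521, minus strand) and SURF6 (chr9:133336139-133336438, minus strand) are printed with the hexamer in capitals, 28 bases after the start in PUS7 and 224 before it in SURF6.
PUS7: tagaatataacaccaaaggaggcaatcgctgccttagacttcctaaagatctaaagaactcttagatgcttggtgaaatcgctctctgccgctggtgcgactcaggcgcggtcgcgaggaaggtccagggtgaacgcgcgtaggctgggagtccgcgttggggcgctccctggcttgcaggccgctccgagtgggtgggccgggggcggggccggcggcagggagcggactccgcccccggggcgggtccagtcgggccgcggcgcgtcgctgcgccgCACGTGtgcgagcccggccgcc
SURF6: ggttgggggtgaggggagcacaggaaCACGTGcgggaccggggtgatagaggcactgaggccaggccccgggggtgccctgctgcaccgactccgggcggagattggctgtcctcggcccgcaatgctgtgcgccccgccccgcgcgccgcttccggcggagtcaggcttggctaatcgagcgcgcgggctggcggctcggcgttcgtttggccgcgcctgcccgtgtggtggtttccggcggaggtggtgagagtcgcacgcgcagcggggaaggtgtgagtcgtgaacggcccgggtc

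Other growth genes fell by less. Among 19 snoRNA host genes 14 fell (median -0.21), led by SNHG15 (29.7 ± 1.91 to 21 ± 1.24 CPM) and SNHG3 (91 ± 3.35 to 65 ± 1.62 CPM). For purine and pyrimidine synthesis, 17 of 26 fell and 5 rose (median -0.16). PPAT, the first enzyme of purine synthesis, fell from 90.1 ± 2.07 to 75.8 ± 1.68 CPM, while TYMS, which makes thymidylate and belongs also to the S phase list, rose by 0.17 on the log2 scale. Cytosolic ribosomal proteins had 56 of 74 lower with a median of -0.10, but that count depended on the setting: it was 15, with 2 higher, under total counts, 51 without MS41 replicate 2, 42 without replicate 3, 22 against MS41N and 11 against PFI-6. Many of these genes have near-identical pseudogenes, so their counts are uncertain. Genes of oxidative phosphorylation had 20 of 53 lower (median -0.06), and under total counts 8 lower, 3 higher and a median of 0.01. The 37.7% lower compares with 30.4% of genes with an average log2 CPM of at least 3. PFI-6 against DMSO had a like median for this list (-0.058, and -0.061 for MS41). With MS41, 11 were lower and 1 higher against MS41N, and 7 lower and 1 higher against PFI-6. All 13 mitochondrially encoded genes missed the threshold in edgeR, 0 of them had an unadjusted p under 0.05, and DESeq2 called 0.

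In the list of ATF4 and unfolded protein stress genes 19 of 37 fell and 6 rose (13 and 8 under total counts). The factor XBP1 (-0.39), the amino acid carrier SLC7A5 (-0.34) and the chaperones CALR (-0.25) and HSPA5 (-0.20) were among the falls. SLC7A11, the cystine carrier, went the other way and was at 10.7, 11.3 and 10.8 CPM with DMSO and 21.6, 21.3 and 22 CPM with MS41 (0.99, SE 0.069, adjusted p = 1.05e-15). For hypoxia and glycolysis, 14 of 34 fell, among them LDHA (-0.25) and ENO1 (-0.19), and 4 rose, among them the glucose carrier SLC2A3 (5.41 ± 0.369 to 9.65 ± 0.452 CPM), while under total counts 9 fell and 7 rose. Among 26 cholesterol and fatty acid genes 11 fell and 4 rose, and under total counts 5 fell and 9 rose. The 30 p53 targets had 9 higher and 6 lower (15 and 3 under total counts), with CDKN1A, which encodes p21, rising from 37.3 ± 2.17 to 42.3 ± 1.12 CPM.

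**Figure D3:**
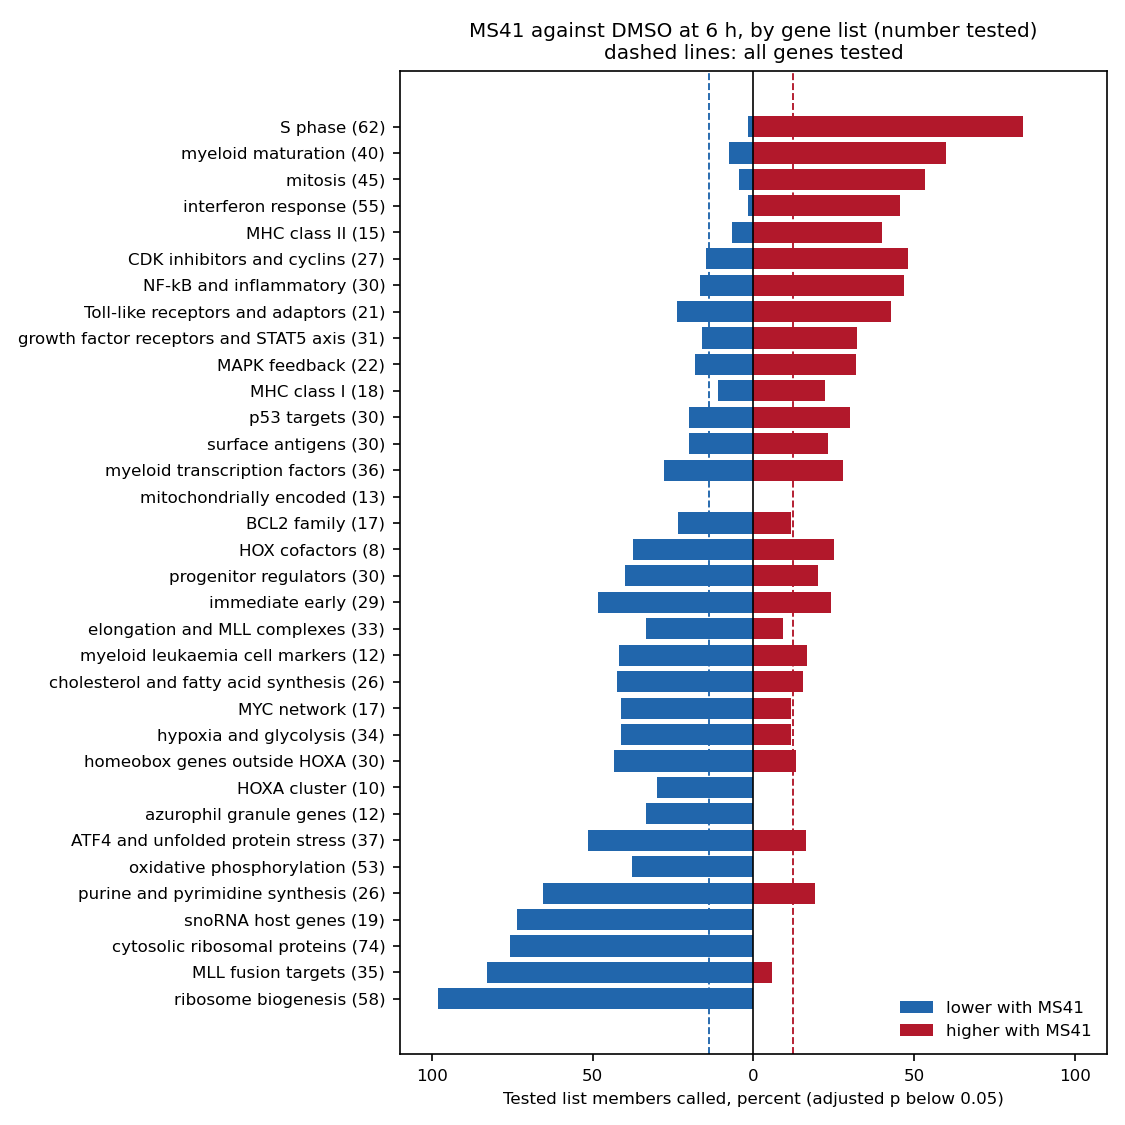
Percentage of the tested members of each gene list that rose or fell with MS41 at 6 h, with the percentage over all genes tested for reference. Ribosome biogenesis and MLL fusion targets stand at the lower end and S phase genes at the higher end, against 13.8% lower and 12.2% higher over all genes. Of genes with an average log2 CPM of at least 3, 30.4% fell and 18.7% rose, which is the nearer reference for lists of abundant genes.

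Most genes of DNA replication rose by small amounts. Of 62 S phase genes 52 rose, 9 did not pass and 1 fell (RRM2, -0.08, adjusted p of 0.728 under total counts and 0.0863 without MS41 replicate 3), with a median log2 difference of 0.20, and without MS41 replicate 2 the counts were 51 and 1. FAM111B, a protease gene of the cell cycle, was at 6.2, 6.46 and 6.64 CPM with DMSO and 16.5, 17.7 and 16.8 CPM with MS41 (1.40, SE 0.068, adjusted p = 3.08e-21), and its paralog FAM111A rose from 106 ± 2.8 to 161 ± 6 CPM. The cyclin E gene CCNE2 was at 24.8, 24.3 and 24.7 CPM with DMSO and 38, 38.1 and 34.9 CPM with MS41 (0.59). BRCA2 rose from 127 ± 4.58 to 188 ± 9.56 CPM, the exonuclease EXO1 from 86.6 ± 0.689 to 114 ± 3.09 CPM and the helicase HELLS from 71.5 ± 0.656 to 93.5 ± 1.77 CPM, whereas helicase subunits MCM4 and MCM6 rose by only 0.10 and 0.10. In the mitosis list 24 of 45 rose and 2 fell (BUB3 and CDC25A, the latter with an adjusted p of 0.214 under total counts), with a median of 0.11. MKI67, the source of the Ki-67 antigen, rose from 916 ± 53.3 to 1101 ± 74.1 CPM, and its adjusted p was 0.0548 when fitted on the 6 libraries alone. Among 27 CDK inhibitors, cyclins and E2F genes 13 rose, among them E2F7 (0.57), E2F2 (0.51), RB1 (0.39) and the p57 gene CDKN1C (0.403 ± 0.0288 to 0.915 ± 0.0815 CPM), and 4 fell: CDKN1B, CDK6, CCND2 (-0.30) and CDK4 (-0.14, adjusted p = 0.0758 under total counts).

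E2F factors bind TTTGGCGC and TTTCCCGC, both searched on both strands, and such sites are known from S phase promoters. Promoters were matched for 48 of the 62 S phase genes, too few for a share over the list. The promoter of HELLS is shown (chr10:94545538-94545837, plus strand) because it holds both strings, in capitals: TTTGGCGC on the minus strand 76 bases before the start and TTTCCCGC 8 bases before it. Of all promoters, 0.652% held the first and 1.63% the second.
HELLS: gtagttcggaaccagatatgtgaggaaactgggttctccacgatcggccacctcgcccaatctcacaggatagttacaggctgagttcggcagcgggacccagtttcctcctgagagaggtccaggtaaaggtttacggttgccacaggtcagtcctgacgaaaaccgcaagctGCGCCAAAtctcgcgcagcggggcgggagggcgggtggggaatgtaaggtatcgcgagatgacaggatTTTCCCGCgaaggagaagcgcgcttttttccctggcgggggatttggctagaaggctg

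Myeloid maturation genes were among the largest rises. CYBB, the catalytic subunit of the phagocyte oxidase, was at 2.18, 2.4 and 1.79 CPM with DMSO and 5.92, 6.27 and 6.47 CPM with MS41 (1.55, SE 0.083, adjusted p = 9.34e-20), the largest rise among genes with an average log2 CPM of at least 3 over all 24 libraries. In the 6 libraries compared CYBB and JAML averaged 4.17 and 7.66 CPM, below the 8 CPM of that limit, which they met with their levels at 24 h included. TLR6, CD86 and other genes under the limit rose further. JAML, an adhesion molecule of neutrophils and monocytes, was at 4.45, 4.21 and 4.43 CPM with DMSO and 10.3, 11.7 and 10.9 CPM with MS41 (1.33), and CD86, a costimulatory molecule, at 0.717, 0.915 and 0.669 CPM with DMSO and 2.8, 3.01 and 3.3 CPM with MS41 (1.99, adjusted p = 8e-09). For these 3 genes the lowest MS41 value was well above the highest DMSO value, but groups without overlap were a condition for the largest rises named. Of 40 members tested 24 rose and 3 fell, and without MS41 replicate 2 the counts were 21 and 3. The scavenger receptor gene CD36 rose from 31.1 ± 0.134 to 56.3 ± 1.99 CPM, the integrin gene ITGAM, which encodes CD11b, from 1.18 ± 0.227 to 2.18 ± 0.407 CPM, the cathepsin gene CTSS from 68.7 ± 0.749 to 93 ± 4.01 CPM and the receptor gene CSF1R from 23.9 ± 0.767 to 34.1 ± 0.171 CPM. NCF1 also rose (6.43 ± 0.494 to 9.59 ± 0.708 CPM), though it has near-identical pseudogenes. The 3 falls were FCGR1A (-0.34), MS4A6A (-0.24) and LYZ (-0.19). Azurophil granule genes, which belong to the promyelocyte stage, had 4 of 12 lower and 0 higher (3 and 2 under total counts). The 33.3% lower compares with 13.8% of all genes and 30.4% of those with an average log2 CPM of at least 3. The 4 were PRTN3 (292 ± 14.9 to 211 ± 9.53 CPM), CTSG (118 ± 3.33 to 94.2 ± 4.25 CPM), ELANE and SERPINB1, the last of which did not pass under total counts (adjusted p = 0.353).

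Toll-like receptors, which sense microbial molecules, rose at several loci. TLR1 was at 6.24, 6.96 and 6.44 CPM with DMSO and 17, 17.4 and 16.5 CPM with MS41 (1.37, SE 0.059, adjusted p = 4.73e-23) and TLR6 at 1.92, 2.23 and 1.9 CPM with DMSO and 7.58, 7.7 and 9.18 CPM with MS41 (2.02). Those 2 genes overlap in the annotation, so their reads may not be independent. TLR4, which binds endotoxin, rose from 28.1 ± 1.52 to 49.9 ± 2.35 CPM, and TLR7, TLR8 and TLR10 rose from levels below 0.3 CPM with DMSO to 0.723, 0.637 and 0.917 CPM. TLR2 fell (134 ± 3.47 to 113 ± 3.77 CPM), as did CXorf21 (TASL), the adaptor that links TLR7 and TLR8 to IRF5, at 346, 354 and 352 CPM with DMSO and 175, 176 and 173 CPM with MS41 (-1.01, SE 0.027, adjusted p = 4.94e-31). The list as a whole had 9 higher and 5 lower of 21.

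Transcription factors of the myeloid and B lineages went both ways, 10 higher and 10 lower of 36 (11 and 7 under total counts). Each share was 27.8%, against 18.7% higher and 30.4% lower among genes with an average log2 CPM of at least 3. IRF8, which sets the monocyte lineage, was at 709, 719 and 721 CPM with DMSO and 444, 434 and 436 CPM with MS41 (-0.71, SE 0.022, adjusted p = 2.95e-28), and ELF1 fell from 627 ± 13.9 to 418 ± 8.81 CPM and CEBPA from 60.7 ± 3.96 to 51.1 ± 2.96 CPM. EGR1, a factor of monocyte maturation, rose from 89.7 ± 2.08 to 132 ± 0.965 CPM, and ID2 from 15.2 ± 0.259 to 21.9 ± 0.995 CPM. PRDM1, which encodes the repressor BLIMP1, was at 6.54, 6.3 and 6.28 CPM with DMSO and 16.9, 17.4 and 15.6 CPM with MS41 (1.38, SE 0.076, adjusted p = 2.68e-19), and BCL6, a repressor in a mutual circuit with it in B cells, rose from 0.717 ± 0.0862 to 1.86 ± 0.222 CPM. Among 30 progenitor regulators 12 fell and 6 rose. SOX4 fell from 139 ± 0.917 to 93.5 ± 1.89 CPM, while KIT rose from 22.6 ± 1.34 to 28.5 ± 1.31 CPM. In the list of growth factor receptors and the STAT5 axis 10 of 31 rose (32.3%) and 5 fell (16.1%, against 13.8% of all genes). Under total counts 16 rose and 5 fell. IL7R was at 16.6, 17.3 and 17.6 CPM with DMSO and 31.5, 32.3 and 32.5 CPM with MS41 (0.90), IL10RA rose from 6.41 ± 0.346 to 11.1 ± 0.908 CPM, and the STAT5-driven kinases PIM2 (-0.46) and PIM3 (-0.45) fell. Among 22 MAP kinase feedback genes 7 rose (31.8%, against 12.2% of all genes) and 4 fell (18.2%, against 13.8%). Of the phosphatases in that list, DUSP6 fell (66.6 ± 2.75 to 42.9 ± 2.54 CPM) and DUSP10 rose (8.89 ± 0.291 to 17.2 ± 1.24 CPM). The remaining large rises were IPCEF1 (7.62 ± 0.442 to 20.7 ± 0.819 CPM), an adaptor of the cytohesin exchange factors, the kinase HIPK2 (10.3 ± 0.609 to 20.5 ± 1.4 CPM), the signalling adaptor SLA (17.9 ± 1.23 to 36.5 ± 0.193 CPM), the coreceptor NRP1 (10.5 ± 0.359 to 20.7 ± 1.54 CPM) and the sarcoglycan SGCB (6.27 ± 0.59 to 12.2 ± 0.573 CPM).

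For the interferon response, 25 of 55 tested genes rose and 1 fell (TRIM14), with a median log2 difference of 0.36, and without MS41 replicate 2 the counts were 23 and 1. SAMD9L, an antiviral growth regulator, was at 6.61, 6.78 and 7.37 CPM with DMSO and 12.8, 13.4 and 13.5 CPM with MS41 (0.94, SE 0.073, adjusted p = 3.38e-14) and the nucleotide kinase CMPK2 at 7.41, 8.77 and 8.21 CPM with DMSO and 14.4, 14 and 14.6 CPM with MS41 (0.82). The DNA sensor IFI16 rose from 13.3 ± 0.561 to 22.6 ± 1.34 CPM and the kinase EIF2AK2 from 38.1 ± 1.13 to 57.5 ± 2.99 CPM. MX1 rose from 0.256 ± 0.139 to 0.654 ± 0.125 CPM and IFIT3 from 0.411 ± 0.127 to 0.907 ± 0.0257 CPM. IFIT3 had an adjusted p of 0.0648 without DMSO replicate 2 and 0.0603 without DMSO replicate 1.

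The interferon-stimulated response element has as its core the letters GAAA repeated after a gap of any 2 bases, read by IRF factors, and PRDM1 binds similar letters. Promoters were matched for 42 of the 55 interferon genes, too few for a share over the list, and 3.57% of all promoters held the core on either strand. MX1 (chr21:41420308-41420607, plus strand) and IFIT3 (chr10:89327747-89328046, plus strand) are shown as examples with the core in capitals, 11 bases after the start in MX1 and 156 and 122 before it, on the minus strand, in IFIT3.
MX1: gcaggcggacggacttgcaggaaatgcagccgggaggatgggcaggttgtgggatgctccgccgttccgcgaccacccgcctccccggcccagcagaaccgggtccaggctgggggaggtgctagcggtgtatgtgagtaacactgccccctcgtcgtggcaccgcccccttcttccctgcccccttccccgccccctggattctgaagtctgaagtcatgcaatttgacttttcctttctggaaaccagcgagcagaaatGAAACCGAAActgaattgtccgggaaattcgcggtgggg
IFIT3: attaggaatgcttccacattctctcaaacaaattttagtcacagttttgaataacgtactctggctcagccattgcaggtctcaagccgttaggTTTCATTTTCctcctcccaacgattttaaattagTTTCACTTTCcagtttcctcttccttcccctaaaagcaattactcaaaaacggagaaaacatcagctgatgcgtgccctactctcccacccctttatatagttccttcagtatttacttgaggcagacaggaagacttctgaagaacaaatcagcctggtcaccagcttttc

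In antigen presentation the regulator rose more than most of its targets. CIITA, the master activator of MHC class II, was at 7.14, 6.33 and 6.65 CPM with DMSO and 12.3, 11.7 and 12.9 CPM with MS41 (0.87, SE 0.069, adjusted p = 4.08e-14). Of 15 class II genes 6 rose and 1 fell (RFX5), with HLA-DPA1 from 1.39 ± 0.165 to 2.07 ± 0.291 CPM and HLA-DMA from 3.21 ± 0.133 to 3.96 ± 0.238 CPM. Some of these rises lost their calls when single libraries were left out. The adjusted p in edgeR was 0.214 for HLA-DQB1 and 0.14 for HLA-DRB5 without MS41 replicate 2. For HLA-DRA it was 0.148 without MS41 replicate 1. MHC class I had 4 of 18 higher (22.2%) and 2 lower (11.1%), and under total counts 10 higher and 2 lower. Of genes with an average log2 CPM of at least 3, 18.7% rose and 30.4% fell. Inflammatory genes of the NF-kB list had 14 of 30 higher and 5 lower (15 and 2 under total counts): CCL2, a monocyte chemokine, was at 0.0888, 0.0581 and 0.119 CPM with DMSO and 0.97, 1.01 and 1.02 CPM with MS41 (3.48), PTGS2 rose from 1.08 ± 0.0959 to 2.48 ± 0.397 CPM, CXCL8 from 5.85 ± 0.697 to 11.1 ± 1.02 CPM and IL1B from 0.84 ± 0.0183 to 1.54 ± 0.301 CPM. Of 17 BCL2 family genes 2 rose (11.8%, against 12.2% of all genes) and 4 fell (23.5%, against 13.8%). Under total counts 4 rose and 4 fell. BMF, a promoter of cell death, was at 31.5, 27.9 and 27 CPM with DMSO and 60.2, 57.4 and 60.2 CPM with MS41 (1.04, SE 0.043, adjusted p = 1.76e-23). Its binding partners BCL2 (-0.42) and MCL1 (-0.13) fell, as did BCL2L11 (-0.22) and BID (-0.22). The other rise was that of the anti-apoptotic BCL2A1, from 0.0802 ± 0.0439 to 0.281 ± 0.0712 CPM, and its adjusted p was 0.135 without DMSO replicate 3. Genes for surface antigens split, with 7 of 30 higher and 6 lower (10 and 4 under total counts): CD47, the signal against phagocytosis, rose from 108 ± 0.817 to 129 ± 3.38 CPM, the chemokine receptor CCR2 from 137 ± 2.36 to 180.1 ± 0.99 CPM and HAVCR2, which encodes TIM-3, from 0.765 ± 0.13 to 1.5 ± 0.136 CPM, and the integrin ITGA4 fell from 370.5 ± 0.77 to 281 ± 0.775 CPM.

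By mass of RNA the order was different, since CPM follow abundance and transcript length. The largest loss in CPM was that of HNRNPU, an abundant nuclear RNA-binding protein, at 2540, 2569 and 2546 CPM with DMSO and 1437, 1476 and 1475 CPM with MS41 (-0.80, SE 0.02, adjusted p = 3.71e-32). HSPA8, HSP90AA1, NCL, PTMA, SRGN, MBNL1, EMB and CALR also lost most, and the pseudogene EEF1A1P5, whose reads cannot be told from those of EEF1A1. The largest gains were MKI67 and AHNAK (634 ± 91.4 to 816 ± 186 CPM), though AHNAK had a log2 difference of 0.16 and an adjusted p of 0.253 without MS41 replicate 3, against 0.36, SE 0.12, adjusted p = 0.0309 with it. HSPA1A (417 ± 10.4 to 529.6 ± 49.1 CPM), which shares reads with HSPA1B, ATAD2, CBX5, CENPF, NUCKS1, IQGAP1, BRCA2 and ZMYND11 gained next most. Some of these changes were not particular to MS41. CENPF was at 742 ± 36.2 CPM with MS41 and 741 ± 16.6 with PFI-6, and AHNAK at 806 ± 45.7 with PFI-6. In edgeR, CENPF, AHNAK, NUCKS1 and EEF1A1P5 did not differ between MS41 and PFI-6 (adjusted p = 0.989, 0.958, 0.314 and 0.175). The other gains named here were higher with MS41 than with PFI-6. Below an average log2 CPM of 3, the largest rises were GBP3 (0.523 ± 0.133 to 2.63 ± 0.0319 CPM), PTPRO, TLR6, CD86, TMEM52B (0.415 ± 0.0439 to 1.55 ± 0.302 CPM), SIDT1, GPR141 and DHRS9, and the largest falls were non-coding transcripts beside PITX1, CDKN1B and HOXA10, AC099568.2, AC055876.1 and TRGJ2.

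At the same dose and time MS41N and PFI-6 changed little: against DMSO, 73 genes (0.321%) differed with MS41N and 466 (2.05%) with PFI-6. The 2 direct comparisons use none of the DMSO libraries but share the MS41 libraries with the first. MS41 differed from MS41N at 4954 genes (21.8%), 2297 higher (10.1%) and 2657 lower (11.7%), and from PFI-6 at 4422 (19.5%), 2123 higher (9.35%) and 2299 lower (10.1%). PITX1 was at 197, 236 and 225 CPM with MS41N and 202, 193 and 187 CPM with PFI-6, and the log2 difference of MS41 was -1.76 against MS41N and -1.59 against PFI-6. HOXA9 was at 59.9, 58.1 and 60.2 CPM with MS41N and 54.1, 55.1 and 56.6 CPM with PFI-6, and the log2 difference of MS41 was -1.59 against MS41N and -1.48 against PFI-6. For MYC the levels were 383, 401 and 390.3 CPM with MS41N and 373, 348 and 358 CPM with PFI-6, and the log2 difference of MS41 was -1.16 against MS41N (95% interval -1.22 to -1.10) and -1.04 against PFI-6 (-1.10 to -0.98). CYBB was at 2.32, 2.07 and 2.06 CPM with MS41N and 2.21, 2.29 and 2.78 CPM with PFI-6, and the log2 difference of MS41 was 1.53 against MS41N and 1.36 against PFI-6. The largest adjusted p of these 8 differences was 5.2e-13.

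With PFI-6, some of the same genes were below DMSO by smaller amounts, with log2 differences of -0.26 for PITX1 (adjusted p = 0.0283), -0.18 for MYC (adjusted p = 0.000293) and -0.16 for CDKN1B (adjusted p = 0.00229). With MS41N the same 3 stood at -0.09, -0.06 and -0.04 (adjusted p = 0.779, 0.58 and 0.834). MLL fusion targets had a median of -0.40 in MS41 against MS41N, with 28 of 35 lower, and -0.40 against PFI-6, with 29 lower. The ribosome biogenesis genes were lower in 57 of 58 against MS41N and in 53 against PFI-6, and S phase genes were higher in 52 and 49 of 62. For the interferon list, 28 of 55 were higher in each comparison.

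**Figure D4:**
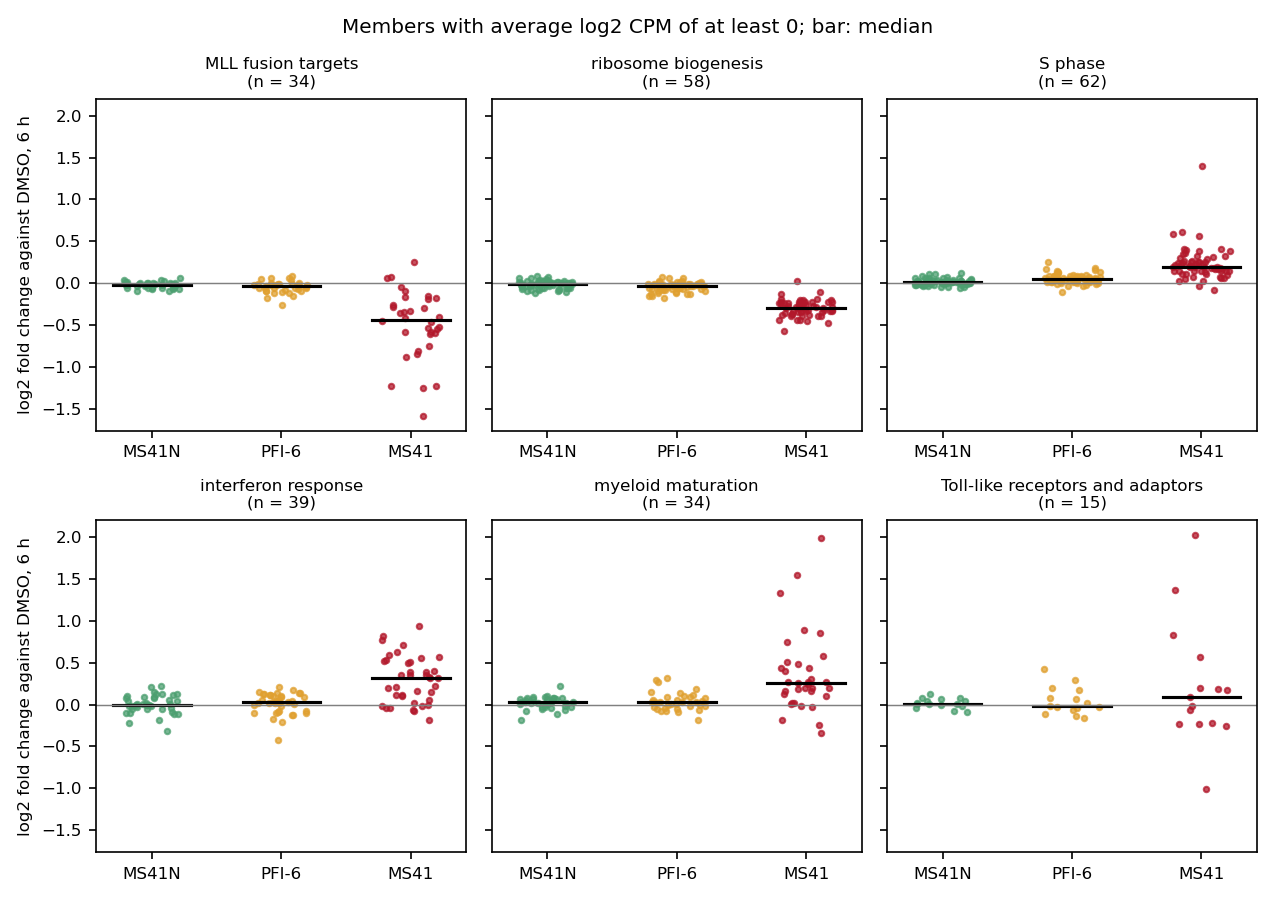
Log2 difference from DMSO at 6 h (y axis) for the members of 6 gene lists with an average log2 CPM of at least 0, for MS41, MS41N and PFI-6 at 100 nM; each point is a gene. Most MS41 points of MLL fusion targets and ribosome biogenesis lie below 0 and most S phase points above it, while the MS41N and PFI-6 points crowd around 0; all 3 compounds share the DMSO libraries.

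For several immediate early genes, which respond to signals within minutes, the other compounds showed differences from DMSO like that of MS41. In that list 14 of 29 fell and 7 rose against DMSO, but 9 were lower and 8 higher against MS41N. FOSB was at 69.1, 77.2 and 83.3 CPM with DMSO, 44.9, 52.4 and 55.8 with MS41, 41.2, 52.6 and 58 with MS41N and 43.3, 48 and 58.1 with PFI-6. All 9 compound values lay below the 3 DMSO values. The log2 difference of MS41 was -0.58 from DMSO (adjusted p = 0.0216) and 0.015 from MS41N (95% interval -0.37 to 0.40). FOS differed from DMSO by -0.29 and from MS41N by -0.003 (-0.19 to 0.18), and JUN by -0.38 and 0.125 (-0.15 to 0.40). For these 3 genes the 3 compounds share 1 set of DMSO libraries, so their differences from DMSO are not independent, and all 3 calls against DMSO were lost without MS41 replicate 1 (adjusted p of 0.088 for FOSB, 0.073 for FOS and 0.135 for JUN). FOSL2, by contrast, was lower with MS41 in all 3 comparisons, with log2 differences of -0.70 against DMSO, -0.66 against MS41N and -0.59 against PFI-6.

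By 24 h the effect of MS41 against its own DMSO group had changed at 6001 genes (26.4%), upward at 2713 (11.9%) and downward at 3288 (14.5%). Against DMSO at 24 h itself 10050 genes differed (44.3%), 4860 higher (21.4%) and 5190 lower (22.9%). HOXA9 stood at -1.59 at 6 h and -1.50 at 24 h, a change of 0.09 (adjusted p = 0.219), while HOXA10 went further, from -1.23 to -1.52 (adjusted p = 0.000657). MYC and CDKN1B came partly back, to -0.95 and -0.93 (adjusted p = 8.7e-07 and 8.55e-08). Across the MLL fusion targets the median went from -0.42 to -0.25, and 18 of 35 moved upward and 3 downward. Of the 12 largest falls 4 moved upward and 3 downward, and of the 12 largest rises 10 moved upward and 1 downward (FAM111B, -0.35). These 24 were chosen with a level limit over all 24 libraries. Chosen instead by a mean of at least 8 CPM over the 6 libraries compared, an alternative added after seeing the data, 10 of the 12 rises were the same genes, and again 10 moved upward and 1 downward.

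Several other lists stood further from DMSO at 24 h. Myeloid maturation had a median of 0.25 at 6 h and 1.25 at 24 h, with 33 of 40 genes moving upward, and CYBB reached a log2 difference of 5.71 (1.57 ± 0.108 to 81.8 ± 2.76 CPM at 24 h). The interferon median went from 0.36 to 0.92 and that of MHC class II from 0.20 to 2.20. Ribosome biogenesis deepened from -0.29 to -0.58, with 51 of 58 moving downward, and purine and pyrimidine synthesis from -0.16 to -0.42, with 24 of 26 moving downward. The median of the S phase genes was 0.20 at 6 h and -0.12 at 24 h, and 54 of 62 moved downward. Against DMSO at 24 h, 10 of the 62 were higher and 37 lower. HELLS was higher by 0.39 at 6 h and stood at 0.01 at 24 h. HSPA1A went from 0.35 to -0.43.

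**Figure D5:**
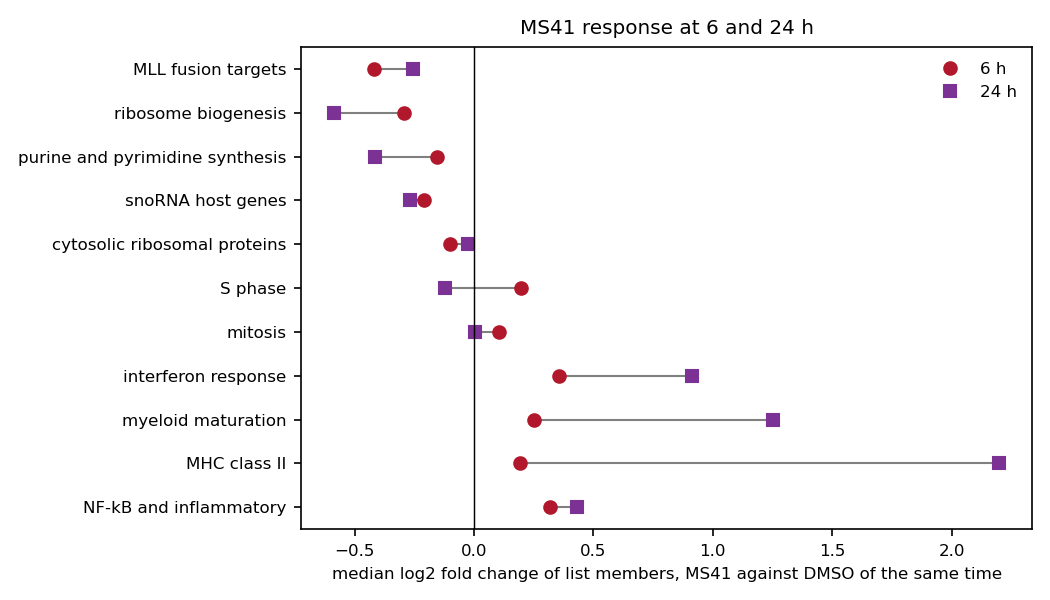
Median log2 difference between MS41 and DMSO (x axis) at 6 and 24 h for 11 gene lists (y axis), each time against its own DMSO group. The line of the S phase genes crosses 0, and those of myeloid maturation, interferon response and MHC class II run to higher values at 24 h. The MLL fusion targets lie below 0 at both times.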

How the data were processed

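Whole-number read counts per gene were made and deposited by the authors; the hg38 build, HTSeq 0.11.3, HISAT2 2.1.0 and CASAVA 1.8 appear in the submitters' processing notes, and whether counting used strand is not given in the sources used here. The labels put 3 libraries in each of 8 groups of MV4;11 cells (the protocol text writes MS47N where the titles have MS41N). The 24 libraries were fitted together in edgeR 4.0.16 (R 4.3.3) with filterByExpr by group, TMM scaling and a robust quasi-likelihood fit with 16 residual degrees of freedom and a biological coefficient of variation of 4.77%. P-values were adjusted by Benjamini-Hochberg over all 22711 genes, and a standard error is the log2 difference divided by the square root of F. CPM use the TMM-scaled library size. Depth was 102345811 to 156479711 counts per library, and intervals cover the spread between libraries.

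The script was tested on simulated data. Members and lists were chosen with earlier results of these data known. Besides list members, the text names the 12 largest rises and falls at an average log2 CPM of at least 3 and 8 of each from 0 to 3, with groups that do not overlap, the 10 largest gains and losses in CPM, the largest differences from MS41N and PFI-6, and genes within 100 kb of the 12 largest falls. AFF1, KMT2A and EEF1A1 are named as background. Gene models came from GENCODE 29 and promoters from RefSeq (35116 promoters). Replicate numbers gave no clear pairing of the libraries. No 2 libraries of a group agreed within sampling noise. Alternatives were other scalings, DESeq2 1.42.0, other filters, a GC trend, the 6 libraries alone, a fold threshold and leaving out each library.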

Additional observations from a re-analysis of the deposited data

Results flagged for a closer look

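The effect of MS41 differed between 6 and 24 h at 6001 genes by the test of the difference itself, and 18 of the 24 genes with the largest changes at 6 h, among those with an average log2 CPM of at least 3 over both times, were among them. Each value here is the log2 difference from DMSO at 24 h minus that at 6 h. Among the falls, the effect had become smaller for PITX1 (0.33), CDKN1B (0.32), MYC (0.28) and TRGC1 (0.13), and larger for HOXA10 (-0.29), AL139125.2 (-0.49) and UGCG (-0.20). Among the rises it had grown for CYBB (4.16), JAML (1.90), SLC7A11 (1.51), IPCEF1 (1.45), BMF (0.95), TLR1 (0.88), PRDM1 (0.71), HIPK2 (0.69), NRP1 (0.61) and SLA (0.42). CYBB and JAML met that level limit with their 24 h libraries included. The effect had become smaller for FAM111B (-0.35).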

How the results depend on the processing

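Against a fold change of 1.2 the count of genes that differed from DMSO moved to 803, and 14 abundant genes named for their change in CPM no longer passed. In the other settings the totals of both directions stayed within 1.5 times their main values, but under total counts the rises and falls against DMSO went from 2768 and 3129 to 4274 and 1815, those against MS41N from 2297 and 2657 to 3660 and 1603, and those against PFI-6 from 2123 and 2299 to 3450 and 1407. DESeq2 called 6213 genes against DMSO, and total counts 6089 with 70.2% higher (46.9% with TMM). Under total counts, 69.5% of the calls against MS41N were higher (46.4% with TMM) and 71% of those against PFI-6 (48% with TMM). With each library left out in turn, the counts ranged from 4915 to 5598 against DMSO, 4224 to 4530 against MS41N, 3638 to 3952 against PFI-6 and 5456 to 5763 for the change to 24 h. Of 960 values for 60 named genes under the alternatives, 936 kept direction and call, 24 lost the call and 0 reversed. Those 24 were NUCKS1, AHNAK, MKI67 and the genes under the 1.2-fold threshold, and the cause was not tested beyond the threshold's own construction. Medians of the elongation, myeloid transcription factor, progenitor, MAP kinase, BCL2, oxidative phosphorylation and leukaemia marker lists changed sign under total counts.

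With the replicate number as a block, the replicate block fit called 5916, 4930, 4451 and 6013 genes in the 4 comparisons. The numbers gave no clear pairing. Same-numbered deviations of MS41 and DMSO correlated at 0.036, 0.17 and -0.13, and those of MS41 and PFI-6 at 0.14, 0.056 and 0.15. For MS41 and MS41N they were -0.16, -0.16 and 0.027. Of the MS41 libraries, those numbered 1 and 2 correlated best with their own number among DMSO libraries and 3 did not. All 3 did so among PFI-6 libraries, and only number 3 among MS41N libraries.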
